A study of Schizosaccharomyces pombe with 4 samples.

Results

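This account sets the ifh1 knockout of fission yeast against the fhl1 knockout, gene by gene, in 1 table of FPKM values (fragment counts scaled by gene length and by the size of the library). Of 5129 genes in the table, 4282 were described: those whose mean over its 4 genotype columns reached 10 FPKM and a length of at least 300 bases, leaving out ifh1, fhl1 and vps32. The ifh1 knockout and the fhl1 knockout were both Schizosaccharomyces pombe cultures in exponential growth with no treatment, and total RNA was made into directional libraries. The table also covers an sfp1 knockout and wild-type cells, and these entered only through the mean used to choose genes. There was 1 sample per genotype, so no difference below has a replicate check and no test was made. A difference between the knockouts cannot be told apart from a difference between cultures or libraries. The table's name mentions 2 replicates, but the sources used here do not say how many cultures stand behind each column. The sources used here give neither the strain background nor the number of clones behind each knockout. Every difference is log2(FPKM + 1) in the ifh1 knockout minus log2(FPKM + 1) in the fhl1 knockout, so a positive value means a higher level in the ifh1 knockout.

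Ribosomes are built from rRNA and a large set of ribosomal proteins, and a growing yeast cell spends much of its mRNA on the genes for those proteins. In budding yeast, Fhl1 is a DNA-binding protein of the forkhead class that sits at ribosomal protein promoters, and Ifh1 is a coactivator that binds Fhl1 there, with TOR signalling acting on the pair. Proteins that assemble ribosomes and make rRNA (processome proteins, helicases, RNA polymerase I) form a separate set of genes, which in budding yeast is largely read from other promoter elements. In fission yeast, many ribosomal protein promoters carry a short sequence called the HomolD box, which takes the place of a TATA box, and some carry a second box called HomolE. The reference annotation calls fission yeast Ifh1 a transcriptional corepressor of the TOR pathway and Fhl1 a forkhead transcription factor for ribosomal proteins.

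The deleted genes went with the labels. The ifh1 gene (SPAC22H10.11c, chromosome I, 2392370 to 2394259) had 0.556 FPKM in the ifh1 knockout and 118 FPKM in the fhl1 knockout. Its counterpart fhl1 (SPAC1142.08, spanning bases 3639988 to 3642219 of chromosome I) had 45.1 FPKM in the ifh1 knockout and 0.0509 FPKM in the fhl1 knockout. Each deleted gene was therefore near 0 in its own knockout and expressed in the other. Next to fhl1, vps32, which encodes a subunit of the ESCRT-III membrane-remodelling complex, had 112 FPKM in the ifh1 knockout and 617 FPKM in the fhl1 knockout, and for that reason it was left out with the deleted genes. On the other side of fhl1, SPAC1142.09 was listed at 0 in the ifh1 knockout and at 5.33 FPKM in the fhl1 knockout, and cgs1 had 82.4 FPKM in the ifh1 knockout and 132 FPKM in the fhl1 knockout. Around ifh1 the neighbours cbp8 and alp21 differed by 0.36 and 0.30. A part of the locus in the values of these neighbours was not tested.

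Most genes differed little between the knockouts. The median over the 4282 genes was -0.04 with an SD of 0.24 over genes, and 97% of genes lay within 1.5-fold. Genes that were at least 2-fold apart numbered 25: 6 were higher in the ifh1 knockout, which is 0.14% of the genes described, and 19 were lower in it, which is 0.444%. Each FPKM value in the table has a pair of bounds, at a confidence level that the sources used here do not state. Among the genes past 2-fold, the bounds of the knockouts did not overlap in 2 of the higher genes (0.0467%) and in 12 of the lower genes (0.28%). Small differences were unevenly divided, with 40.7% of genes above 0 and 59.3% below 0, and this division depends on the scaling. With the knockouts scaled to equal sums of FPKM outside the ribosomal proteins, the median of all genes moved up by 0.16 to 0.12, 26.2% of genes lay below 0, and 7 genes were at least 2-fold higher and 12 lower. A list median between -0.16 and 0 therefore turns positive under that scaling, and each list is best read against the median of all genes. To place gene lists, the 429 genes with the highest and the 429 with the lowest differences were also marked, each being 10% of the genes. These top and bottom 10% began at 0.20 and -0.33.

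**Figure D1:**
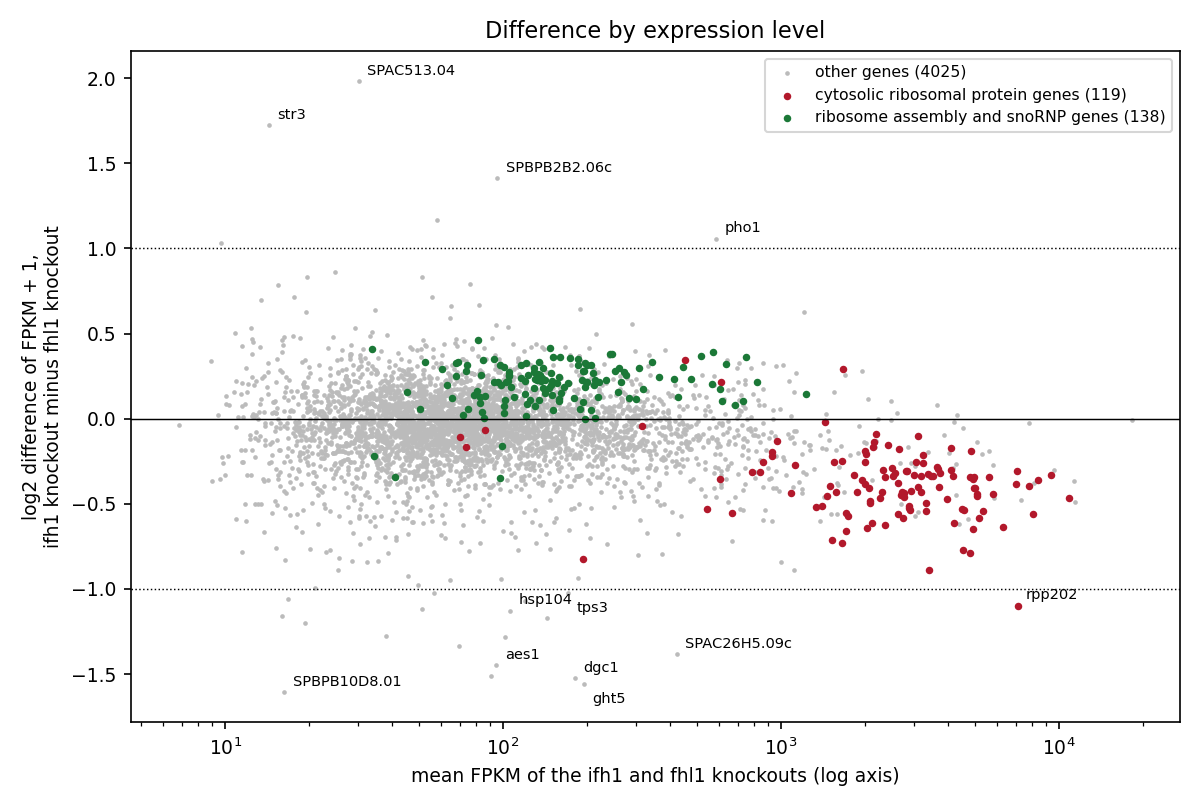
The horizontal axis is the mean FPKM of the ifh1 and fhl1 knockouts on a log scale, the vertical axis is the log2 difference of FPKM + 1 (ifh1 knockout minus fhl1 knockout), each point is 1 of the 4282 genes, and dotted lines mark a 2-fold difference. The 119 ribosomal protein genes (red) lie mostly at the right and below 0, the 138 assembly and snoRNP genes (green) lie mostly above 0 at middle levels, and few of the other genes pass a dotted line.

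The genes for cytosolic ribosomal proteins were lower in the ifh1 knockout than in the fhl1 knockout by a small amount in nearly all cases. Of 138 such genes in the table, 119 passed the rule, and 116 of these (97.5%) lay below 0, against 59.3% of all genes. Single genes ran from -1.10 to 0.34. The median over the 119 genes was -0.38, against -0.04 over all genes, and 74 of the 119 fell in the bottom 10%. Just 1 of them was at least 2-fold lower, and in none did the bounds of the knockouts stand apart. The FPKM lay above its own upper bound for 85 of the 119 in the ifh1 knockout and for 91 in the fhl1 knockout. For such genes, overlap of the bounds says little about the difference of the FPKM values. Set against the median of all genes, the ribosomal protein median was -0.34 as deposited. It was -0.28 with the midpoint of the bounds and -0.065 with quantile normalization. Equal sums outside the ribosomal proteins (-0.33) cannot check this gap, because 1 factor per knockout moves both medians together. Together the 119 genes held 29.6% of the FPKM of all genes described in the ifh1 knockout, against 34.2% in the fhl1 knockout. FPKM gives a gene's share of its library, and RNA per cell was not measured. Another 19 ribosomal protein genes were under 300 bases, where FPKM is least certain; 17 of them lay below 0, with a median of -0.29. The 2 others were rpl3801 and rpl4101, at 0.18 and 0.74. The gene rpl4101, of 78 bases, had 897273 FPKM in the ifh1 knockout and 539030 FPKM in the fhl1 knockout. All genes in the table summed to 2.77e+06 FPKM in the ifh1 knockout and 2.81e+06 FPKM in the fhl1 knockout. The shares above therefore hold only for the genes described and not for the whole table. With the 19 short genes counted in, the order turned: ribosomal proteins held a larger part of the whole table in the ifh1 knockout than in the fhl1 knockout. That turn rests on rpl4101.

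The small subunit showed a slightly lower median than the large subunit. Of 46 small-subunit genes 45 lay below 0, with a median of -0.42, and of 66 large-subunit genes 64 lay below 0, with a median of -0.34. For the small subunit, rps1402, which encodes protein uS11, had 2382 FPKM in the ifh1 knockout and 4413 FPKM in the fhl1 knockout, a difference of -0.89. The genes rps902 (uS4) and rps1002 (eS10) followed with -0.73 and -0.71. In the large subunit rpl3002, a weakly expressed copy for eL30, had 140.3 FPKM in the ifh1 knockout and 249 FPKM in the fhl1 knockout, a difference of -0.82. Next came rpl35A01 for eL33, with 3501 FPKM in the ifh1 knockout and 6047 FPKM in the fhl1 knockout, and rpl1902 with a difference of -0.64. All of these were lower in the ifh1 knockout. All had overlapping bounds, but also an FPKM above its own upper bound in both knockouts.

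The stalk proteins P0, P1 and P2 form the arm of the large subunit that recruits translation factors. All 7 of their genes lay below 0, with a median of -0.41. The P2 gene rpp202 was the ribosomal protein gene past 2-fold, at 4522 FPKM in the ifh1 knockout and 9679 FPKM in the fhl1 knockout, a difference of -1.10. Its bounds overlapped, but both values lay above their own upper bounds, 1954 FPKM in the ifh1 knockout and 3819 FPKM in the fhl1 knockout. The rpp202 difference was under 2-fold with equal sums outside the ribosomal proteins (-0.93), with quantile normalization (-0.72) and with the midpoint of the bounds (-0.93). A second P2 gene, rpp201, had 3344 FPKM in the ifh1 knockout and 5711 FPKM in the fhl1 knockout. The P0 gene rpp0 differed by -0.54 and the P1 gene rpp103 by -0.21. Of genes whose products travel with the ribosome, cpc2, the RACK1 protein of the small subunit, differed by -0.42, and the ubiquitin fusion genes ubi1 and ubi2, which encode ubiquitin joined to a ribosomal protein, by -0.38 and -0.35. All 5 genes of that list lay below 0, with a median of -0.35, which turned to 0.054 under quantile normalization.

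Most fission yeast ribosomal proteins are encoded by more than 1 gene, and copies did not always keep together. When copies were summed, all 65 ribosomal proteins with a gene described lay below 0, with a median of -0.39, a range of -0.85 to -0.11, and none at 2-fold. In 56 of 59 pairs of copies both lay below 0. The median distance between the differences of a pair was 0.20, and 19 pairs stood more than 0.3 apart. The widest pair was rps14: rps1401 had 1835 FPKM in the ifh1 knockout and 1498 FPKM in the fhl1 knockout, a difference of 0.29, whereas rps1402 differed by -0.89. Summed, this protein's genes differed by -0.49. In the pair for uL1, rpl102 had 504 FPKM in the ifh1 knockout and 397 FPKM in the fhl1 knockout, and rpl101 had 2206 FPKM in the ifh1 knockout and 3301 FPKM in the fhl1 knockout. These gave 0.34 for rpl102 and -0.58 for rpl101. The minor copy rpl102 thus stood above 0 and the major copy below it. The third such pair was rpl34, with 0.22 for the minor copy rpl3402 and -0.30 for rpl3401.

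**Figure D2:**
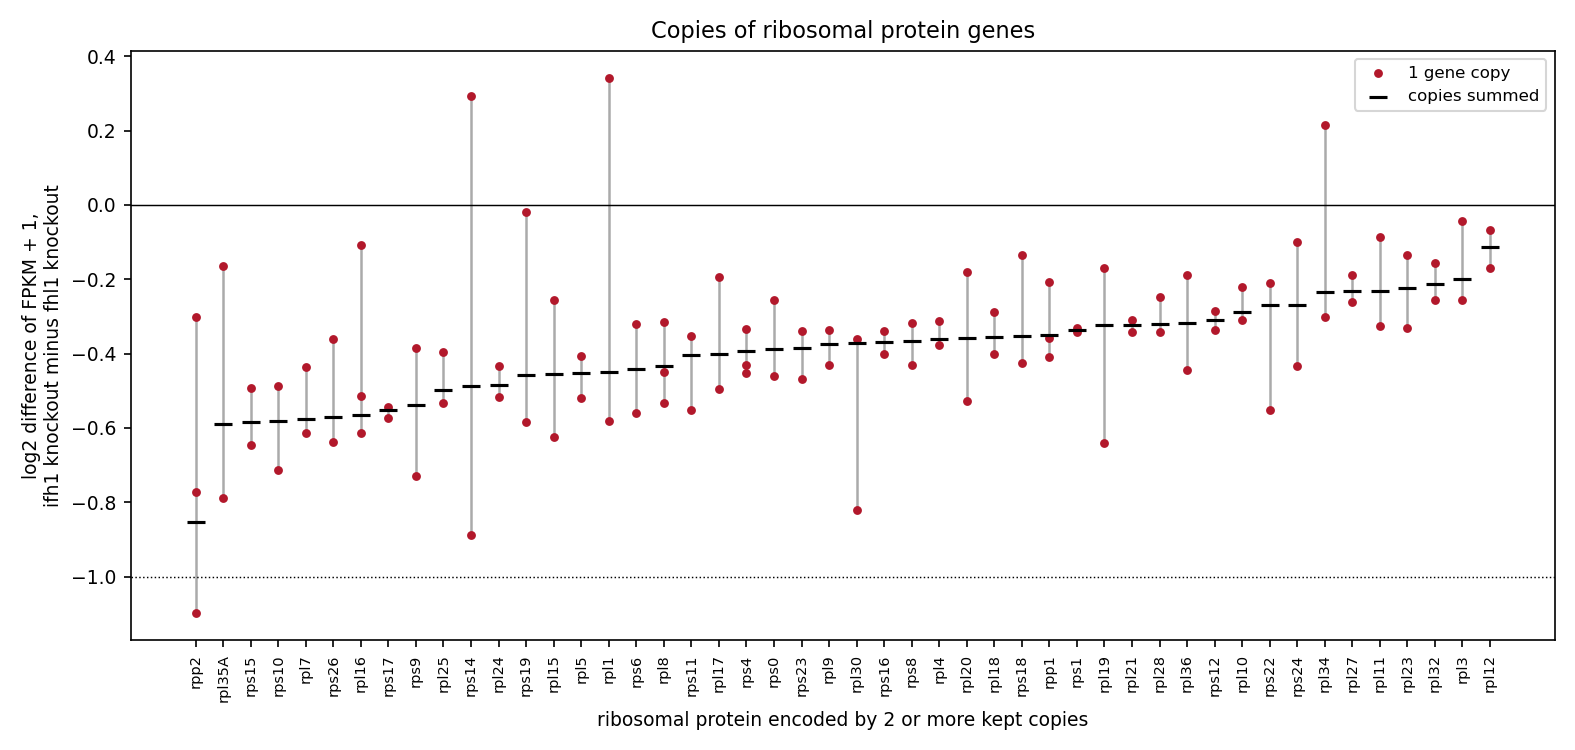
Each column is a ribosomal protein with at least 2 gene copies described (48 of 49 are drawn), red points are single copies, black bars are the copies summed, and the vertical axis is the log2 difference of FPKM + 1 (ifh1 knockout minus fhl1 knockout). All black bars lie below 0, and the 3 red points above 0 belong to rps1401, rpl102 and rpl3402.

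Copies can share reads. The coding sequences of paired copies were 68.6% to 99.6% identical, with a median of 87.5%, and the sources used here do not say how reads that match more than 1 copy were assigned. The rps14 copies were 93.6% identical and the rpl1 copies 80.1%, so the values of single copies are less certain than the sums.

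Promoters were read to see whether the HomolD and HomolE boxes go with the size of the difference. Stretches of 100 bases just upstream of the annotated transcript start are shown for 4 of the ribosomal protein genes with the lowest differences (rps1402 to rps1502) and 3 of those with the highest (rpl1101, rpl1202 and rpl102) among genes with a HomolD match. All are given 5′ to 3′ on the gene's own strand from RefSeq ASM294v3. Capitals mark HomolD (CAGTCACA) and HomolE (ACCCTACC) on either strand.
rps1402, II:1792263-1792362, plus strand: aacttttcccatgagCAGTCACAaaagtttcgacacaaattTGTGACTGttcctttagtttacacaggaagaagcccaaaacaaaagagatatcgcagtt
rpl3002, I:5095880-5095979, minus strand: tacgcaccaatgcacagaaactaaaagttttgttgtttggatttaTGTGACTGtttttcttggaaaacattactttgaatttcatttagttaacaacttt
rpp201, II:3643061-3643160, plus strand: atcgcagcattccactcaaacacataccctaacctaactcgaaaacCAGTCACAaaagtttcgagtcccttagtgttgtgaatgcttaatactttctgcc
rps1502, I:3868979-3869078, minus strand: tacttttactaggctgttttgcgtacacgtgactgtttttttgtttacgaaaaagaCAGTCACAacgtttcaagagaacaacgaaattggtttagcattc
rpl1101, I:3346886-3346985, minus strand: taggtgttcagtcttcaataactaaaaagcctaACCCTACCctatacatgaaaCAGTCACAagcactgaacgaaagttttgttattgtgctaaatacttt
rpl1202, III:627824-627923, minus strand: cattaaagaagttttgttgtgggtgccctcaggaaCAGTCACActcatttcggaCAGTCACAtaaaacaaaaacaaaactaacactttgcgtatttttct
rpl102, II:3060449-3060548, plus strand: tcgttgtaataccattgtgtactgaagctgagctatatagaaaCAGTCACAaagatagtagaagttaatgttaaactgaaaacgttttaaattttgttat

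The HomolD box was common in these promoters and did not separate the ribosomal protein genes by their difference. In windows from 250 bases before to 50 bases after the annotated start, HomolD matched in 77 of 119 ribosomal protein genes (64.7%), against 2.9% of all 4281 windows. The median match stood 51.5 bases upstream of the annotated start. Ribosomal protein genes with HomolD had a median difference of -0.38 and those with no match -0.39. HomolE matched in 38 of the 119 (31.9%), against 1.73% of all windows, and the medians with and without it were -0.42 and -0.36. With both boxes the median was -0.39 (22 genes), with HomolD alone -0.34 (55), with HomolE alone -0.44 (16) and with neither -0.37 (26). Among assembly and snoRNP genes, each box matched in 1 of 138 windows. Among all genes outside the ribosomal proteins, the 47 with HomolD had a median of -0.17 and the 4115 without it -0.04. For HomolE these medians were -0.05 (36 genes) and -0.04 (4126 genes). The cause was not tested. As the printed stretches show, rps1402 at -0.89 and rpl1202 at -0.07 both carry 2 HomolD matches. No match here says only that these exact letters are not in the window.

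Ribosomal protein genes are short and highly expressed, and both properties were set beside the result. Among 94 genes outside the ribosomal proteins with a mean of 1000 FPKM or more over the knockouts, 78 lay below 0 with a median of -0.19. The 103 ribosomal protein genes at that level had a median of -0.40, and 102 lay below 0. Outside the ribosomal proteins the median was -0.09 from 300 to 1000 FPKM, -0.03 from 100 to 300 FPKM and -0.04 under 30 FPKM. Values below 0 were thus also frequent among other highly expressed genes, and the part of the level in the ribosomal protein values was not tested. Length moved less with the difference: genes of 300 to 500 bases had a median of -0.06 outside the ribosomal proteins and of -0.36 among them. Quantile normalization, which sets the distributions of the knockouts equal, left a ribosomal protein median of -0.06 with 74 of 119 below 0, where all genes had a median of 0.01; 103 of the 197 genes at 1000 FPKM or more are ribosomal protein genes, so this step acts largely on them.

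Genes that assemble ribosomes went the other way. Across the small-subunit processome, large-subunit assembly and snoRNP lists, 133 of 138 genes lay above 0, against 40.7% of all genes, with a median of 0.22, and 78 of the 138 were in the top 10%. None passed 2-fold and none had bounds apart. Set against the median of all genes, their median was 0.26 as deposited. It was 0.26 with quantile normalization and 0.24 with the midpoint of the bounds. Equal sums outside the ribosomal proteins (0.26) cannot check this gap, because that scaling moves both medians together. The assembly and snoRNP genes held 2.84% of the FPKM of genes described in the ifh1 knockout, against 2.11% in the fhl1 knockout. These genes were of middle expression and ordinary length, with a median of 144.5 FPKM and 1395 bases.

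The processome binds U3 snoRNA and the nascent rRNA and prepares the small subunit. Of its 63 genes 61 lay above 0, with a median of 0.22, and 42 were in the top 10%. The U3-associated protein gene utp5 had 38.6 FPKM in the ifh1 knockout and 28.8 FPKM in the fhl1 knockout, a difference of 0.41. For fcf2, an rRNA processing factor, the levels were 279 FPKM in the ifh1 knockout and 214.5 FPKM in the fhl1 knockout, and utp3 differed by 0.36. The lowest gene of the list, fyv7, differed by -0.16.

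Large-subunit assembly and export genes gave nearly the same picture, with 60 of 62 above 0, a median of 0.21 and 32 in the top 10%. The RNA helicase gene spb4 had 94.1 FPKM in the ifh1 knockout and 67.9 FPKM in the fhl1 knockout, a difference of 0.46. The nucleolar protein gene nop52 differed by 0.42 and rpf2, whose product helps to place the 5S rRNA particle in budding yeast, by 0.38. The lowest was loc1, a gene of 312 bases, at -0.35. Among 13 genes for snoRNP proteins, which carry the guides for rRNA modification, 12 lay above 0 with a median of 0.15. Fibrillarin (fib1), the rRNA methyltransferase, had 645 FPKM in the ifh1 knockout and 490.3 FPKM in the fhl1 knockout, and nhp2 of the pseudouridylation complex differed by 0.36.

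The RNA polymerases that make rRNA and tRNA differed in the same direction by less. For RNA polymerase I, 12 of 14 genes lay above 0 with a median of 0.12, led by rpa43 at 64.0 FPKM in the ifh1 knockout and 47.9 FPKM in the fhl1 knockout, and by rpa49 at 0.37. For RNA polymerase III, 18 of 23 genes lay above 0 with a median of 0.05, and the largest value was 0.26, for the TFIIIB subunit gene bdp1. The general initiation factor gene rrn3 of polymerase I differed by 0.21 and rrn6 by -0.19.

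Genes for the translation machinery around the ribosome stood close to the median of all genes. The 27 initiation factor genes had a median of 0.05, with int6, an eIF3 subunit gene, at 0.21 and the poly(A)-binding protein gene pabp at -0.35. The 13 elongation and termination factor genes had a median of -0.03, which was above 0 under all 3 other scalings. Within them the eIF5A gene tif512 had 3595 FPKM in the ifh1 knockout and 4906 FPKM in the fhl1 knockout, a difference of -0.45. The EF-1 alpha copies were split, with tef103 at 0.26 and tef101 at -0.20. Of 19 cytosolic tRNA synthetase genes 15 lay below 0, with a median of -0.11 (0.056 with equal sums outside the ribosomal proteins), and the lowest was lrs1 for leucine at -0.21. The 52 mitochondrial ribosome genes, which make a separate ribosome, had a median of 0.00, so their values did not follow those of the cytosolic ribosomal proteins.

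Genes of sugar metabolism were mostly lower in the ifh1 knockout. Of 16 glycolysis and fermentation genes 14 lay below 0, with a median of -0.30, and 7 were in the bottom 10%. The median was -0.062 with quantile normalization (10 below 0) and -0.13 with equal sums outside the ribosomal proteins (11 below 0). The glucose-6-phosphate isomerase gene pgi1 had 688 FPKM in the ifh1 knockout and 1037 FPKM in the fhl1 knockout, a difference of -0.59. Phosphoglycerate kinase (pgk1) had 3772 FPKM in the ifh1 knockout and 5681 FPKM in the fhl1 knockout, and tdh1, for glyceraldehyde-3-phosphate dehydrogenase, differed by -0.49. These are among the most highly expressed genes, where the values outside the ribosomal proteins also tended below 0. In the list of gluconeogenesis, glycerol and trehalose genes, which are less expressed, 13 of 14 lay below 0, with a median of -0.27. Quantile normalization gave a median of -0.14 with 12 below 0, and equal sums outside the ribosomal proteins gave -0.11 with 8 below 0.

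Trehalose is a sugar that protects cells under stress, and the 4 genes for its synthesis and breakdown named here were lower in the ifh1 knockout. The synthase gene tps1 had 134 FPKM in the ifh1 knockout and 212 FPKM in the fhl1 knockout, a difference of -0.65. The related tps3 had 113 FPKM in the ifh1 knockout and 230.2 FPKM in the fhl1 knockout, a difference of -1.02 with bounds apart, just past the limit and under it with each of the 3 other scalings (-0.98 to -0.86). The phosphatase gene tpp1 differed by -0.37 and the trehalase gene ntp1 by -0.43. Of the hexose transporters, 4 of 8 passed the rule. The high-affinity glucose transporter gene ght5 had 98.3 FPKM in the ifh1 knockout and 292 FPKM in the fhl1 knockout, a difference of -1.56 with bounds apart, while ght8, ght6 and ght2 differed by -0.29, 0.01 and 0.17. The ght5 value was therefore not shared by the other transporters described.

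Chaperones of the heat shock class were also lower in the ifh1 knockout: 18 of 21 lay below 0, with a median of -0.35, and 11 were in the bottom 10%. With equal sums outside the ribosomal proteins 15 of 21 lay below 0 and the median was -0.20. The disaggregase gene hsp104 had 66.1 FPKM in the ifh1 knockout and 146 FPKM in the fhl1 knockout, a difference of -1.13. The Hsp70 gene ssa1 had 36.8 FPKM in the ifh1 knockout and 75.7 FPKM in the fhl1 knockout, a difference of -1.02. In both, the bounds of the knockouts did not overlap. With equal sums outside the ribosomal proteins both were under 2-fold, at -0.96 for hsp104 and -0.86 for ssa1. The co-chaperone gene psi1 and the Hsp90 gene hsp90 differed by -0.73 and -0.57, whereas hsf1, which encodes the heat shock transcription factor, stood at 0.00 and polyubiquitin (ubi4) at 0.23.

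The core environmental stress list, which shares tps1, gpd1, tpp1 and ntp1 with the sugar lists, gave 28 of 32 below 0 with a median of -0.27, or 25 of 32 and -0.10 with equal sums outside the ribosomal proteins. Its lowest gene was rtc3, of 321 bases, with 77.1 FPKM in the ifh1 knockout and 163 FPKM in the fhl1 knockout. The bounds of rtc3 overlapped, but both values lay above their own upper bounds. The glycerol-3-phosphate dehydrogenase gene gpd1 differed by -0.54, the peroxidase gene pmp20 by -0.60 and the catalase gene ctt1 by -0.20. The regulator genes atf1 and wis1 of the stress kinase pathway stood at -0.04 and -0.06, close to the median of all genes. The highest of the list was mug14 at 0.47.

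Nitrogen metabolism followed the same direction with some exceptions. Of 9 genes for ammonium, glutamate and glutamine handling 7 lay below 0, with a median of -0.35 (7 and -0.19 with equal sums outside the ribosomal proteins). The glutamate dehydrogenase genes gdh1 and gdh2, which make and break down glutamate, differed by -0.72 and -0.61: gdh1 had 505 FPKM in the ifh1 knockout and 831 FPKM in the fhl1 knockout, and gdh2 had 48.4 FPKM in the ifh1 knockout and 74.5 FPKM in the fhl1 knockout. The proline breakdown gene put2 differed by -0.46, and glt1 and ure4 by 0.12 each. Uptake genes were divided, with 9 of 16 below 0 and a median of -0.12 (0.036 with equal sums outside the ribosomal proteins). The peptide transporter gene ptr2 had 83.2 FPKM in the ifh1 knockout and 143 FPKM in the fhl1 knockout, a difference of -0.77, and the oligopeptide transporter gene isp4 differed by -0.76. By contrast the amino acid permease genes aat1 and cat1 both stood at 0.41, with 233 FPKM of aat1 in the ifh1 knockout and 175 FPKM in the fhl1 knockout.

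For genes of amino acid synthesis the values depended on the scaling. In sulfur assimilation, cysteine and methionine synthesis 18 of 21 genes lay below 0, and the median was -0.21, against 11 of 21 and -0.046 with equal sums outside the ribosomal proteins. The lowest gene of that list was SPBPB10D8.01, annotated as a cysteine transporter, at -1.60 with bounds apart. After it came sam1, the S-adenosylmethionine synthetase gene, at -0.56 and met26, the homocysteine methyltransferase gene, at -0.55. Lysine and histidine genes had a median of -0.18, with the homocitrate synthase gene lys4 at -0.53, and arginine and ornithine genes likewise had a median of -0.18, with arg12 at -0.45. With equal sums outside the ribosomal proteins these medians were -0.0096 (7 of 14 below 0) and -0.013 (8 of 13 below 0). Branched-chain and aromatic genes stood nearer to all genes at -0.09, although 15 of 16 lay below 0, and at 0.074 with equal sums outside the ribosomal proteins. Purine and pyrimidine genes had a median of 0.04, led by the IMP dehydrogenase gene gua1 at 0.27, and ade10 of the same pathway was at -0.33.

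A pair of phosphate genes was higher in the ifh1 knockout. The secreted acid phosphatase gene pho1 had 789 FPKM in the ifh1 knockout and 379 FPKM in the fhl1 knockout, a difference of 1.06 with bounds that overlapped. Next to it, the phosphate transporter gene pho84 had 1468 FPKM in the ifh1 knockout and 951 FPKM in the fhl1 knockout, a difference of 0.63. Of other members of the thiamine, biotin and phosphate list, tgp1, a phosphate-regulated transporter gene, differed by -0.25 and pho7, the activator gene of the phosphate response, by -0.16. The phosphate genes did not therefore all stand on the same side. In the same list the biotin transporter gene vht1 differed by -0.80, with 273 FPKM in the ifh1 knockout and 474 FPKM in the fhl1 knockout, and the thiamine genes nmt1 and thi2 by -0.01 and -0.02.

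Among 20 iron and copper genes, str3 stood apart. This siderophore transporter gene had 22.6 FPKM in the ifh1 knockout and 6.14 FPKM in the fhl1 knockout, a difference of 1.72 with bounds apart. The median of the list was -0.08 (0.081 with equal sums outside the ribosomal proteins), and other iron uptake genes differed by far less than str3: str1 by 0.26, str2 by -0.22, fip1 by -0.11 and fio1 by -0.22. The iron regulator genes fep1 and php4 stood at -0.13 and -0.05, and the lowest gene was the copper transporter subunit gene ctr5 at -0.51.

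The remaining lists lay within 0.2 of 0 in the median, and with equal sums outside the ribosomal proteins the median of every list in this paragraph was above 0, from 0.0059 for septation to 0.16 for TOR signalling. Of septation and mitotic genes 27 of 28 lay below 0, or 13 of 28 with equal sums outside the ribosomal proteins, and the median was -0.16; adg2 was the lowest at -0.48, cdc25, the phosphatase gene that drives entry into mitosis, differed by -0.38, and the Polo kinase gene plo1 stood at 0.02. Respiratory chain and citric acid cycle genes had a median of -0.13, with mdh1 at 156 FPKM in the ifh1 knockout and 240.5 FPKM in the fhl1 knockout. The medians were -0.09 for the proteasome, where rpt6 was the lowest at -0.59, -0.10 for the targets of the cell cycle factor MBF, -0.10 for histones, -0.11 for flocculins, -0.09 for sterol and fatty acid synthesis and -0.07 for autophagy. The TOR signalling genes had a median of -0.01 and ran from -0.30 (gtr2) to 0.28 (tti2). Sexual development genes were spread more widely around a median of -0.03, with ste7 at 13.7 FPKM in the ifh1 knockout and 28.3 FPKM in the fhl1 knockout, cgs1 beside fhl1 at -0.67 and the meiotic recombination gene mcp7 at 0.64.

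**Figure D3:**
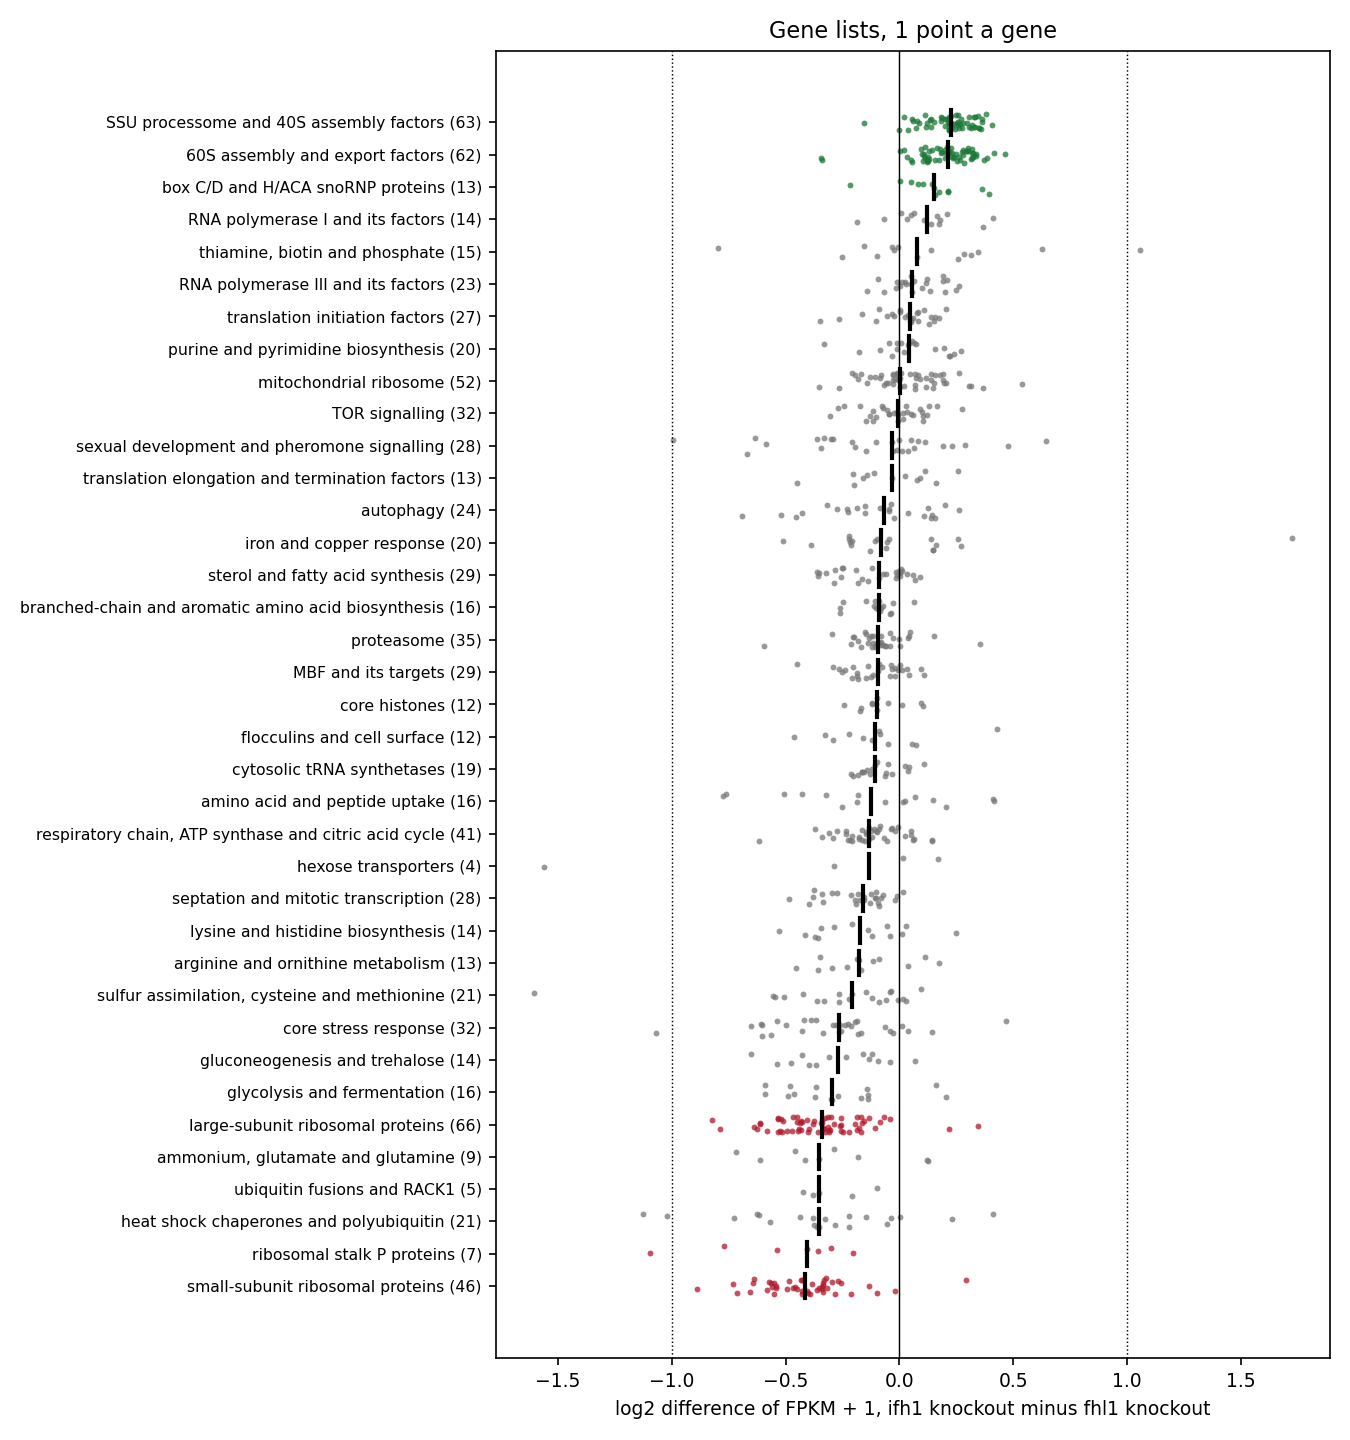
Each row is 1 gene list with its number of genes described, each point is 1 gene, black bars are medians, and the horizontal axis is the log2 difference of FPKM + 1 (ifh1 knockout minus fhl1 knockout). The assembly and snoRNP lists (green) have medians of 0.15 to 0.22, and the ribosomal protein lists (red) have medians of -0.42 to -0.34, next to heat shock chaperones and glutamate genes.

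Of the 14 genes past 2-fold with bounds apart, the lowest was SPBPB10D8.01 (chromosome II, 81295 to 82953), annotated as a cysteine transporter, with 7.57 FPKM in the ifh1 knockout and 25.1 FPKM in the fhl1 knockout, a difference of -1.60. Next to ght5 (chromosome III, 212313 to 213953) in rank stood dgc1 (chromosome I, 146974 to 147879), the D-glutamate cyclase gene, with 92.9 FPKM in the ifh1 knockout and 269 FPKM in the fhl1 knockout. The most highly expressed of them, SPAC26H5.09c (chromosome I, 4137573 to 4138682), of an oxidoreductase family, had 233 FPKM in the ifh1 knockout and 610.3 FPKM in the fhl1 knockout, a difference of -1.38. The others were aes1 at -1.45, the methyltransferase gene SPCC70.08c at -1.33, SPAC27D7.09c of the But2 family at -1.28, the uridine ribohydrolase gene urh1 at -1.27, SPAC11D3.18c, annotated as a carboxylic acid transporter, at -1.17, and hsp104, tps3 and ssa1. All 12 were lower in the ifh1 knockout with upper bounds under the lower bounds of the fhl1 knockout. Besides rpp202 and rtc3, the genes past 2-fold lower with overlapping bounds were mmf2 (381 bases, -1.51), SPCC1739.08c (-1.20), fun14 (-1.16), SPBC19C7.04c (-1.12) and SPCC191.06 (-1.06). In mmf2 and SPBC19C7.04c both values lay above their own upper bounds. In fun14 and SPCC191.06 the value of the fhl1 knockout did.

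On the higher side, str3 (chromosome I, 88367 to 90259) was joined by SPBPB2B2.06c (chromosome II, 4469200 to 4471005), annotated as a phosphoprotein phosphatase. It had 139 FPKM in the ifh1 knockout and 51.7 FPKM in the fhl1 knockout, a difference of 1.41. The largest difference of all, 1.98, belonged to SPAC513.04, an uncharacterized gene of 303 bases with 48.8 FPKM in the ifh1 knockout and 11.6 FPKM in the fhl1 knockout. Its bounds overlapped, but both values lay above their own upper bounds. Further genes past 2-fold with overlapping bounds were pho1, ssb3 of the replication factor A complex (315 bases, 1.17) and SPAC1399.06 (375 bases, 1.03). For ssb3 too, both values lay above their own upper bounds. Below the limit the rule for naming genes added SPBC18E5.09c at 0.86 and SPCC569.09 at 0.83, both uncharacterized.

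**Figure D4:**
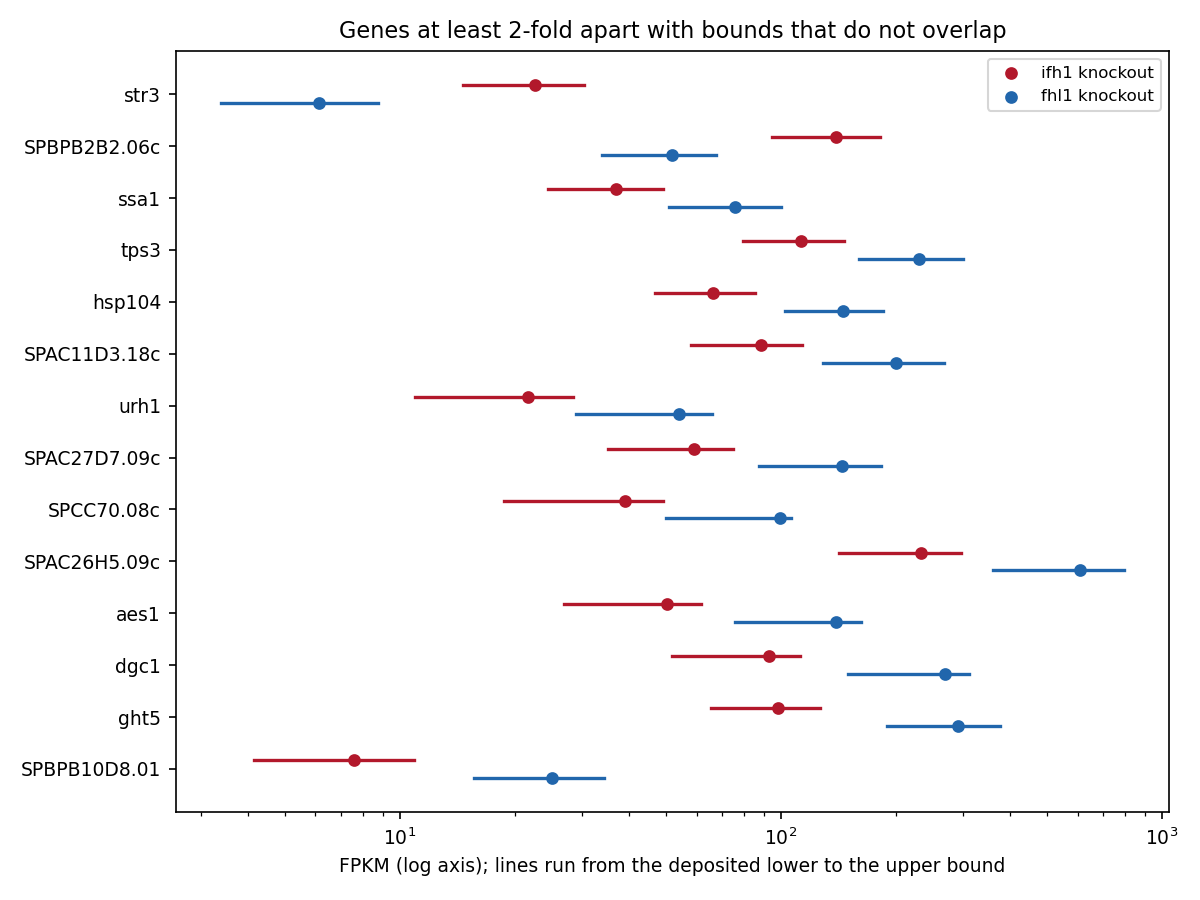
Points are FPKM on a log axis in the ifh1 knockout (red, upper of each pair) and the fhl1 knockout (blue, lower), and lines run from the deposited lower to the upper bound, for the 14 genes at least 2-fold apart with bounds that do not overlap. For str3 and SPBPB2B2.06c the red point lies to the right of the blue one, and for the other 12 it lies to the left.

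Several of these genes were neighbours. On chromosome I, 5 consecutive genes from 136331 to 147879 were all lower in the ifh1 knockout: SPAC11D3.15 (-0.95), SPAC11D3.16c (-0.78), SPAC11D3.17 (-0.58), SPAC11D3.18c (-1.17) and dgc1 (-1.52). SPAC11D3.15 encodes a 5-oxoprolinase and had 43.7 FPKM in the ifh1 knockout and 85.2 FPKM in the fhl1 knockout. It was the single gene under 2-fold whose bounds stood apart. The product of dgc1 joins in the chemistry of glutamate and oxoproline, as does that of SPAC11D3.15, and SPAC11D3.17 encodes a DNA-binding protein of the fungal zinc cluster class. To the left, SPAC11D3.14c was listed at 0 in both knockouts and hsp3104 differed by -0.07, and to the right hsp3102 was at 0.671 FPKM in the ifh1 knockout and listed at 0 in the fhl1 knockout.

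Near the left end of chromosome II, aes1 (-1.45), the L-asparaginase gene SPBPB21E7.09 (-0.71) and SPBPB10D8.01 (-1.60) follow each other, and all 3 were lower in the ifh1 knockout. Near the other end of that chromosome SPBPB2B2.05 (0.64) and SPBPB2B2.06c (1.41) were both higher in it, as were pho84 and pho1 further inward. Between these, nrg1 differed by -0.18. Values for the neighbours were looked up after those of the named genes had been seen, and no test bears on whether neighbours go together.

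How far single values can be trusted differed with length and level. The half-width of the deposited bounds was a median of 35.2% of their midpoint in the ifh1 knockout, against 35.7% in the fhl1 knockout, and no ribosomal protein or assembly gene had bounds apart. The FPKM lay above its own upper bound for 645 genes in the ifh1 knockout, 85 of them ribosomal protein genes, against 752 genes in the fhl1 knockout, 91 of them ribosomal protein genes. In genes of at least 1000 bases this happened in 0 of 2622. Where it happens, overlap of the bounds does not describe the difference of the FPKM values. Total fragment counts are not given with FPKM, so the depth behind each value is unknown and no counting interval was made. At the edges of the rule, SPCPB16A4.06c was just inside with a mean of 10.07 FPKM and taf51 just outside with 9.98 FPKM, and 3 genes had exactly 300 bases while 6 genes of 294 bases were the longest under the limit.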

How the data were processed

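The submitters' processing notes name TopHat2 (2.0.9) and Cufflinks (2.1.1) without their roles. The sources used here do not give the genome build, the handling of strand or of reads shared by copies, or how the 2 replicates in the table's name were combined. The authors deposited FPKM per gene and genotype, each with its bounds. The column named crf1d was taken as the ifh1 knockout, since crf1 is a synonym of ifh1 in RefSeq. From these, log2(FPKM + 1) differences were computed with Python 3.11.15, pandas 2.3.3 and numpy 2.4.6. The calculation was also run on simulated data with planted differences, which checks the arithmetic only. It does not bear on replicate spread, shared reads, short genes or scaling. With 1 sample per genotype no test was made; "2-fold" is a limit of size.

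The members and the 37 gene lists were chosen with earlier results of these data known, and 26 list entries were taken off by their annotated product or as doubles. Of 1006 names and patterns in the lists, 157 matched no gene in the table. Named genes are the 12 highest and 12 lowest among those past 2-fold with bounds apart, filled up to 8 per direction from genes with overlapping bounds, and the 3 leading members of each list; the text names further members, and neighbours, as context, chosen after their values were seen. Of 5129 genes 5107 matched RefSeq ASM294v3, 4953 with the same coding boundaries; gene coordinates are the table's, and promoter windows were cut from the ASM294v3 genome at its annotated starts. Alternatives covered pseudocount, scaling, expression and length minimum, and bounds. Some items are not reported here.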

Additional observations from a re-analysis of the deposited data

How the results depend on the processing

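The median of ribosomal protein genes stayed below 0 and that of assembly and snoRNP genes above 0 in every alternative tried, within -0.39 to -0.056 and 0.21 to 0.38. For ribosomal proteins several alternatives could hardly act. The other expression filters kept the same 119 genes, and pseudocounts of 0.1 and 10 left the median at -0.38. A minimum of 1000 bases left only 4 of the genes. Quantile normalization moved the ribosomal protein median to -0.056, with 74 of 119 below 0. Scaling the knockouts to equal sums outside the ribosomal proteins moved the median of all genes to 0.12, that of ribosomal protein genes to -0.21 and that of assembly genes to 0.38. It also turned the sign of tRNA synthetases (0.056), hexose transporters (0.027), amino acid uptake (0.036), respiration (0.033), histones (0.065), septation (0.0059) and flocculins (0.057). Further lists turned by it had medians nearer to 0 as deposited. They were elongation and termination factors, branched-chain and aromatic synthesis, iron and copper, proteasome, autophagy, sexual development, TOR signalling, MBF targets and sterol synthesis. Histones also turned under quantile normalization (0.075) and with the midpoint of the bounds (0.058), and ubiquitin fusions and RACK1 turned under quantile normalization (0.054). The cause was not tested. Against 6 higher and 19 lower genes, the counts were 12 and 33 with a mean of at least 1 FPKM, 17 and 42 with no expression minimum, 10 and 45 with no length minimum, 3 and 8 from 1000 bases, and 2 and 12 with bounds apart. A pseudocount of 10 gave 11 lower genes and scaling outside ribosomal protein genes gave 12. Of the genes named past 2-fold, tps3 and ssa1 were under the limit in 4 alternatives each, rpp202, rtc3 and SPAC1399.06 in 3 each, and hsp104, ssb3 and SPBPB10D8.01 in 1 each. No paired analysis was possible because there is 1 sample per genotype.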
